A study of Homo sapiens with 6 samples.

Results

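A read-through gene is a transcript unit that starts at 1 gene, runs past its end and is spliced into the next gene on the same strand. The series table listed 21134 genes, and 104 of them carried a symbol that joins 2 other symbols of the same column with 1 hyphen, such as HSPE1-MOB4. These 104 read-through genes joined 206 partner genes, of which 2 were partners in more than 1 read-through gene. In the table's own description, 103 of the 104 were called readthrough, and ZNF664-FAM101A was the exception. A further 24 hyphenated readthrough genes fell outside the rule and were not used here.

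The libraries came from cardiomyocytes differentiated from the line that the labels give as H9 and call human induced pluripotent stem cells (H9 is widely known as a human embryonic stem cell line). RNA was sequenced from 2 untreated control libraries, 2 libraries of cells given 100 mM alcohol for 24 h and 2 libraries of cells co-treated with 100 mM alcohol and 1 µM losartan, a blocker of the angiotensin II type 1 receptor, for 24 h. All 3 groups shared the same line, and the labels do not say whether the 2 libraries of a group came from separate cultures or differentiations, so p-values measure the spread between these libraries, which may be technical. The design implies 3 comparisons, of alcohol with control, of co-treated with control and of co-treated with alcohol, and every 2 of them share a group.

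Read-through transcription follows when cleavage and polyadenylation at the end of the upstream gene do not release the RNA. The downstream gene's exons are then joined by splicing, usually from the next-to-last exon of the first gene to the second exon of the next. Many such RNAs lose their reading frame and are predicted targets of nonsense-mediated decay, which degrades RNAs with early stop codons, while others encode a fusion protein or keep the protein of 1 partner. Much of the sequence of a read-through RNA is also present in its partners. In short-read sequencing a read from a shared exon therefore has to be divided between the read-through gene and the partner that shares it. The values used here were expected counts, the estimate of such a division, and fragments per kilobase of gene per unit of sequencing depth (FPKM), the same estimate per unit of gene length.

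For 6 read-through genes on which the results turn, the exon-exon junction between the partners was read from GENCODE v29 transcripts (GRCh38). Each line gives the last 15 bases of the upstream partner's exon in lower case and the first 15 bases of the downstream partner's exon in capitals, 5′ to 3′ on the strand of the gene. Each side is carried by a partner, and the join between them is what sets the read-through RNA apart.
HSPE1-MOB4: ggttctaaaggaaagGATTTCTATAATTGG
INO80B-WBP1: cccccttttggctacCTTCGAGAGCTGTGC
JMJD7-PLA2G4B: gaggccatggagaagGCAGAGGTGTCCAGG
ATP6V1G2-DDX39B: agcaagcagcaggcgACAGGCATTTTCCAA
TMX2-CTNND1: agaaccgcagatccaCTCTCTCCTTCCTGC
RPS10-NUDT3: accgaattccagtttGTGCTACTCGTGAGC

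The HSPE1-MOB4 junction spans chr2:197501238-197523624 on the plus strand and joins exons 2 and 3 of the transcript. That of INO80B-WBP1 spans chr2:74457860-74459643 on the plus strand and joins exons 5 and 6. The JMJD7-PLA2G4B junction lies at chr15:41836551-41840158 on the plus strand, between exons 6 and 7. For ATP6V1G2-DDX39B it lies at chr6:31542148-31546109 on the minus strand, between exons 2 and 3. The TMX2-CTNND1 junction was taken from a transcript of 585 bases, a fragment of the gene, and spans chr11:57737668-57789037 on the plus strand. The RPS10-NUDT3 junction spans chr6:34341972-34418369 on the minus strand, between exons 5 and 6. Each of these runs of 30 bases was found in no GENCODE transcript of any other gene.

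How much of each transcript is its own was counted in windows of 50 bases. In the HSPE1-MOB4 transcript, 46 of 841 windows occurred in no transcript of HSPE1 or MOB4. For INO80B-WBP1 it was 49 of 1991 windows, for ATP6V1G2-DDX39B 48 of 1990 and for RPS10-NUDT3 46 of 4733. The JMJD7-PLA2G4B transcript that carries the printed junction had 47 own windows of 3282. Longer GENCODE transcripts of JMJD7-PLA2G4B held more sequence of their own, 2992 of 7178 windows in the longest and 2683 of 7169 in the next. In the 5 transcripts that carry the printed junctions of these genes the own windows numbered no more than 1 junction can give, which is 1 fewer than the window length. GENCODE was not the transcript set of the submitters, whose gene lengths differed from it, so these window counts describe the loci and not the submitters' alignment.

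All 104 read-through genes were matched to RefSeq (GRCh38.p14). In 102 of the 103 loci with all 3 genes matched, the 3 lay on 1 chromosome. The exception was BORCS7-ASMT, which lies on chromosome 10 while ASMT lies on chromosome X, so that the partner its symbol names is not its neighbour. By the naming rule ASMT was kept as its downstream partner, so the sum and share of this locus include a gene of another chromosome. At 64 loci the distance between the partners could be measured, and 41 of these pairs were at most 10000 bases apart, 19 were farther apart and 4 overlapped. Of the 76 loci with listed start sites, 43 read-through genes had the same start as their upstream partner and 70 started within 1000 bases of it. HSPE1-MOB4 and JMJD7-PLA2G4B were among those with the same start, and INO80B-WBP1 started 64 bases from INO80B.

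In the table's annotation, 65 of the 104 had a coding transcript and 39 had non-coding transcripts only, and 32 were described as candidates for nonsense-mediated decay. The median of the mean FPKM was 2.63 for the coding and 2.32 for the non-coding read-through genes. A KEGG orthology number, which assigns a protein function, was given to 94 read-through genes. It was shared with the downstream partner only in 47, with the upstream partner only in 22 and with both in 22, and 3 shared a number with each partner separately.

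The 6 libraries held 4898287 to 5051448 expected counts, and a floor of 3 counts stood for 0.594 to 0.612 CPM (counts scaled to library size). All 12 cardiomyocyte markers, among them TNNT2 and MYH6, were above 0 in every library. They summed to 27036 and 26406 FPKM in control and to between 19840 and 26348 in the 4 treated libraries, all below both controls. The 4 pluripotency markers summed to between 9.08 and 16.05 FPKM. The 4 smooth muscle markers summed to 1926 and 1689 FPKM in control and to between 722.3 and 1451 in the 4 treated libraries, all below both controls. The 4 endoderm or liver markers summed to 38.28 and 36.74 FPKM in control and between 46.56 and 49.29 in treated libraries, and the 4 endothelial markers to 4.92 and 4.65 against 6.16 to 8.96, both without overlap. The 8 fibroblast markers summed to 465.3 and 421.3 FPKM in control and to between 467.2 and 517.5 in treated libraries. All treated libraries again lay above both controls, the lowest by little. The part of these cell types in the results was not tested. In bulk RNA, fewer cells of a type and less RNA per cell cannot be told apart.

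None of the 104 read-through genes was at 0 in every library. This sets them little apart, since 21078 of the 21134 genes in the series table had a rounded count above 0 in some library. Of the 104, 51 were above 0 in all 6 libraries, 46 reached at least 10 expected counts in each of them, and 23 stayed under 10 counts throughout. The median over the read-through genes of the mean FPKM was 2.51, beside 8.22 for upstream partners, 4.72 for downstream partners and 3.96 for all genes. In mean FPKM, 55 read-through genes lay below both partners, 42 between them and 7 above both. Their median length was 2654 bases, against 2106 for the upstream and 2086 for the downstream partners.

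Nearly every read-through estimate was a divided one. Of the 481 expected counts above 0, 477 were not whole numbers (tolerance 0.005), which is 99.2%. The corresponding share was 84.1% for partners and 33.9% for all genes. When the read-through gene and its 2 partners were added, 319 of 622 sums above 0 were whole numbers (tolerance 0.02), and at 47 of 104 loci the sum was whole in all 6 libraries. At those loci the fractions assigned to the 3 genes added up to whole reads.

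Over all loci, read-through genes took between 16.2% and 17.7% of the counts of their loci in each library. In control replicate 1 the share was 17.6% (95% Wilson interval 17.2% to 17.9%) and in control replicate 2 it was 16.2% (15.9% to 16.6%). The alcohol libraries gave 17.6% (17.2% to 17.9%) and 16.6% (16.3% to 16.9%), and the co-treated libraries 17.7% (17.3% to 18.0%) and 17.3% (17.0% to 17.6%). These intervals cover counting error only. The mean of the control group was 16.9% ± 0.97 (SD, n = 2), that of the alcohol group 17.1% ± 0.68 and that of the co-treated group 17.5% ± 0.28, and they differed by less than the spread between the control replicates. An exact permutation test of 2 against 2 libraries cannot give a two-sided p below 0.333, so no test was made. From summed FPKM in place of counts the share was 8.32%, 8.70% and 9.27% in the 3 groups, and as a median over loci 7.78%, 10.3% and 10.6%. The comparison with the spread of the control replicates was made for the pooled share of counts only. The loci together held 1.02% to 1.08% of each library.

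The share varied widely between loci. Among loci with at least 100 summed counts in each library, the 5 largest shares were those of PPAN-P2RY11 (70.3% ± 18, SD over 6 libraries), PALM2-AKAP2 (68.3% ± 5.3), MROH7-TTC4 (60.5% ± 8.1), EEF1E1-BLOC1S5 (55.1% ± 14) and ANKHD1-EIF4EBP3 (55.0% ± 11). The 5 smallest were those of ZNF664-FAM101A, SENP3-EIF4A1, FKBP1A-SDCBP2, FXYD6-FXYD2 and CNPY3-GNMT, all at or under 0.256%. SENP3-EIF4A1, which joins a SUMO protease to a translation initiation helicase, was at 0 in 5 libraries and at 16.7 counts in control replicate 2, while EIF4A1 itself held between 1408 and 1886 counts.

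PALM2-AKAP2, which joins a paralemmin gene to an anchor of protein kinase A, had the most counts of all members. It was estimated at 2058 and 1777 counts in control, 1975 and 1348 in alcohol, and 1549 and 1495 in co-treated libraries. The alcohol replicates thus lay on both sides of the co-treated ones. No change passed the test, with log2 fold changes of -0.22 ± 0.17 (SE) in alcohol and -0.36 ± 0.17 in co-treated libraries against control (adjusted p = 0.683 and 0.401). RPL36A-HNRNPH2, which joins a ribosomal protein to a splicing regulator, had the highest mean FPKM (66.8) and ranged from 56.5 to 76.4 FPKM, with both extremes in co-treated libraries.

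The other 8 read-through genes with the highest FPKM also showed no called change apart from ATP6V1G2-DDX39B. BCL2L2-PABPN1, which joins an inhibitor of apoptosis to the nuclear poly(A)-binding protein, ranged from 30.3 to 45.4 FPKM. SEPT5-GP1BB, a septin joined to a platelet glycoprotein, ranged from 25.6 to 48.7 FPKM, while GP1BB itself was listed at 0 in 5 of 6 libraries. NME1-NME2, which joins a pair of nucleoside diphosphate kinases, ranged from 18.4 to 38.4 FPKM, with its extremes in alcohol replicate 1 and control replicate 1. FPGT-TNNI3K contains the cardiac troponin I-interacting kinase. It was at 9.16 and 7.76 FPKM in control and between 10.9 and 15.2 FPKM in the 4 treated libraries, so that every treated library lay above both controls. Its log2 fold changes were 0.51 ± 0.19 and 0.63 ± 0.19 (adjusted p = 0.330 and 0.173), and TNNI3K and the summed locus did not pass the test in any comparison either. CHURC1-FNTB, HNRNPUL2-BSCL2 and MROH7-TTC4 completed the list.

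Alcohol was compared with control first. Of 104 read-through genes, 74 passed the filter on low counts, and 2 were called at an adjusted p under 0.05, HSPE1-MOB4 lower and INO80B-WBP1 higher. Over all genes 10 of 14926 were called, a background of 0.0670%. The tested read-through genes had a median log2 fold change of 0.18, against 0.00 for all genes tested. With no filter, 25 of all 104 read-through genes had an unadjusted p under 0.05, or 24.0%, beside 8.31% of all genes fitted.

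HSPE1-MOB4 joins HSPE1, the mitochondrial co-chaperonin known as HSP10, to MOB4, a member of the STRIPAK phosphatase complex. It was estimated at 70.1 and 62.1 counts in control, 0 and 0 in alcohol, and 39.1 and 118 in co-treated libraries. Both alcohol libraries thus held none, and the co-treated pair enclosed the controls. Against the floor of 3 counts per library, the estimated alcohol level was at least 21.7-fold lower than control (adjusted p = 0.0186). This bound covers the sampling of reads only, and not how reads are divided among the 3 genes of the locus. The fitted log2 fold change of -9.06 depends on the prior count of the model and is no estimate of size. Over 12 alternative fits with an adjusted p, that p ranged from 0.00264 to 0.162, and without alcohol replicate 2 it was 0.0924.

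The partners of HSPE1-MOB4 held far more reads. HSPE1 was estimated at 449 and 481 counts in control and 431 and 344 in alcohol, and MOB4 at 476 and 517 in control and 539 and 506 in alcohol. Neither was called (adjusted p = 0.487 and 0.914). The summed locus held 995 and 1059 counts in control against 970 and 850 in alcohol, a log2 fold change of -0.19 ± 0.13 (adjusted p = 0.628).

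INO80B-WBP1 joins a subunit of the INO80 chromatin remodelling complex to a gene for a WW domain-binding protein. It was estimated at 65.3 and 56.7 counts in control, 169 and 138 in alcohol, and 69.5 and 89.3 in co-treated libraries. Both alcohol libraries lay above the other 4. The log2 fold change in alcohol was 1.31 ± 0.21 (adjusted p = 0.0456). This call lay close to the threshold: without co-treated replicate 1, a library of neither group, the adjusted p was 0.123, and without co-treated replicate 2 it was 0.113. It was also lost without control replicate 2 (adjusted p = 0.141) and without alcohol replicate 2 (0.0924).

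Of its partners, INO80B stood at 50.2 and 66.9 counts in control and 21.2 and 54.3 in alcohol, and WBP1 at 316 and 320 in control and 367 and 441 in alcohol. The fitted changes had opposite signs, -0.66 ± 0.36 for INO80B and 0.32 ± 0.13 for WBP1, and neither was called (adjusted p = 0.546 and 0.391). The sum was at 431 and 444 counts in control and 557 and 633 in alcohol, a log2 fold change of 0.42 ± 0.12 that did not pass the test (adjusted p = 0.174).

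A further 3 read-through genes had the next smallest p-values in alcohol without being called. ATP6V1G2-DDX39B was at 38.7 and 78.0 counts in control and 157 and 176 in alcohol (adjusted p = 0.0547). RNF103-CHMP3, which joins a ubiquitin ligase of the endoplasmic reticulum to an ESCRT-III subunit, was at 38.1 and 12.1 counts in control, 0 and 0 in alcohol, and 17.6 and 19.2 in co-treated libraries (adjusted p = 0.0547). ABHD14A-ACY1 was at 10.2 and 19.9 counts in control and 59.7 and 54.5 in alcohol (adjusted p = 0.108). Its downstream partner ACY1, aminoacylase 1, was at 77.6 and 48.3 counts in control and 17.1 and 20.6 in alcohol (adjusted p = 0.0916), and the sum stayed between 113 and 146 counts in all 6 libraries.

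**Figure D1:**
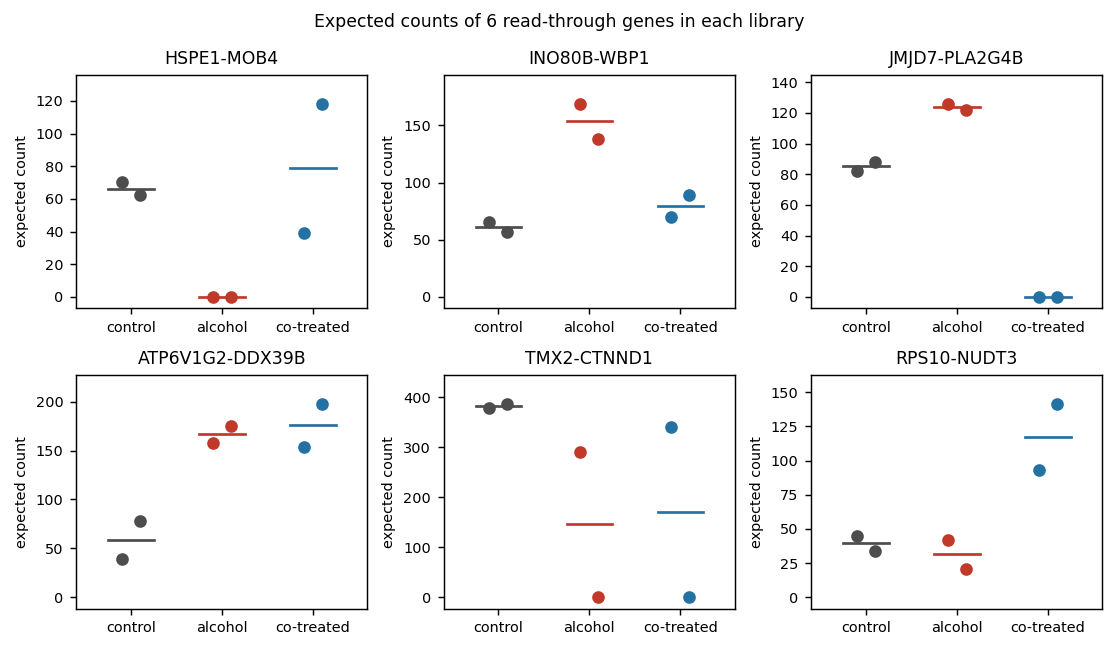
Expected counts (y axis, linear) of 6 read-through genes in the 2 libraries of each group (x axis), with a line at the group mean. HSPE1-MOB4 is at 0 in both alcohol libraries, JMJD7-PLA2G4B is at 0 in both co-treated libraries, and TMX2-CTNND1 is at 0 in 1 library of each treated group.

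In the comparison of co-treated with control libraries, 2 of the 74 tested read-through genes were called, JMJD7-PLA2G4B lower and ATP6V1G2-DDX39B higher. The background was 54 of 14926 genes, or 0.362%. The median log2 fold change was 0.21 over the tested read-through genes, beside 0.00 over all genes. With no filter, 24 of 104 had an unadjusted p under 0.05, or 23.1%, beside 9.44% of all genes fitted. The control libraries are shared with the first comparison, so the counts are not independent.

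JMJD7-PLA2G4B joins JMJD7, a jumonji domain protein, to PLA2G4B, the beta form of cytosolic phospholipase A2. It was estimated at 81.9 and 88.2 counts in control, 126 and 122 in alcohol, and 0 and 0 in co-treated libraries. The 3 groups did not overlap. Against the floor, the estimated co-treated level was at least 27.9-fold lower than control (adjusted p = 4.99e-05) and at least 41.2-fold lower than alcohol (adjusted p = 1.23e-05). As for HSPE1-MOB4, these bounds do not cover the division of reads among the 3 genes. In all 13 alternative fits that gave an adjusted p the call held in both comparisons, with adjusted p up to 0.00668 and 0.0023, and the 1 remaining fit left out genes with a zero.

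Its downstream partner PLA2G4B was estimated at 37.2 and 44.4 counts in control, 8.55 and 32.3 in alcohol, and 123 and 103 in co-treated libraries, so that both co-treated values lay above the other 4. The log2 fold change between co-treated and alcohol libraries was 2.46 ± 0.37, with an adjusted p of 0.0824 that did not pass. JMJD7 was at 51.9 and 44.5 counts in control, 81.4 and 74.1 in alcohol, and 86.0 and 73.0 in co-treated libraries. In both co-treated libraries, JMJD7 and PLA2G4B had whole-number counts.

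The summed JMJD7-PLA2G4B locus held 171 and 177 counts in control, 216 and 228 in alcohol, and 209 and 176 in co-treated libraries. The co-treated values thus spanned from the level of control to near that of alcohol. The log2 fold change of the sum was 0.12 ± 0.15 between co-treated and control (adjusted p = 0.795) and -0.21 ± 0.15 between co-treated and alcohol (adjusted p = 0.917).

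ATP6V1G2-DDX39B joins a subunit of the vacuolar proton pump to DDX39B, an RNA helicase of splicing and mRNA export. It was estimated at 38.7 and 78.0 counts in control, 157 and 176 in alcohol, and 154 and 198 in co-treated libraries. Every treated library lay above both controls. The log2 fold change was 1.57 ± 0.25 between co-treated and control (adjusted p = 0.0226) and 0.08 ± 0.23 between co-treated and alcohol (adjusted p = 0.982). The first was lost without control replicate 1 (adjusted p = 0.0622), co-treated replicate 1 (0.110) or co-treated replicate 2 (0.349).

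DDX39B held 1308 and 1243 counts in control, 1066 and 1123 in alcohol, and 1005 and 1027 in co-treated libraries, and its log2 fold change of -0.35 ± 0.11 in co-treated libraries was not called (adjusted p = 0.206). ATP6V1G2 held between 28.7 and 47.5 counts. The summed locus stood at 1375 and 1351 counts in control and 1196 and 1272 in co-treated libraries, a log2 fold change of -0.17 ± 0.11 (adjusted p = 0.593). The sign of the summed change was thus opposite to that of the read-through gene.

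**Figure D2:**
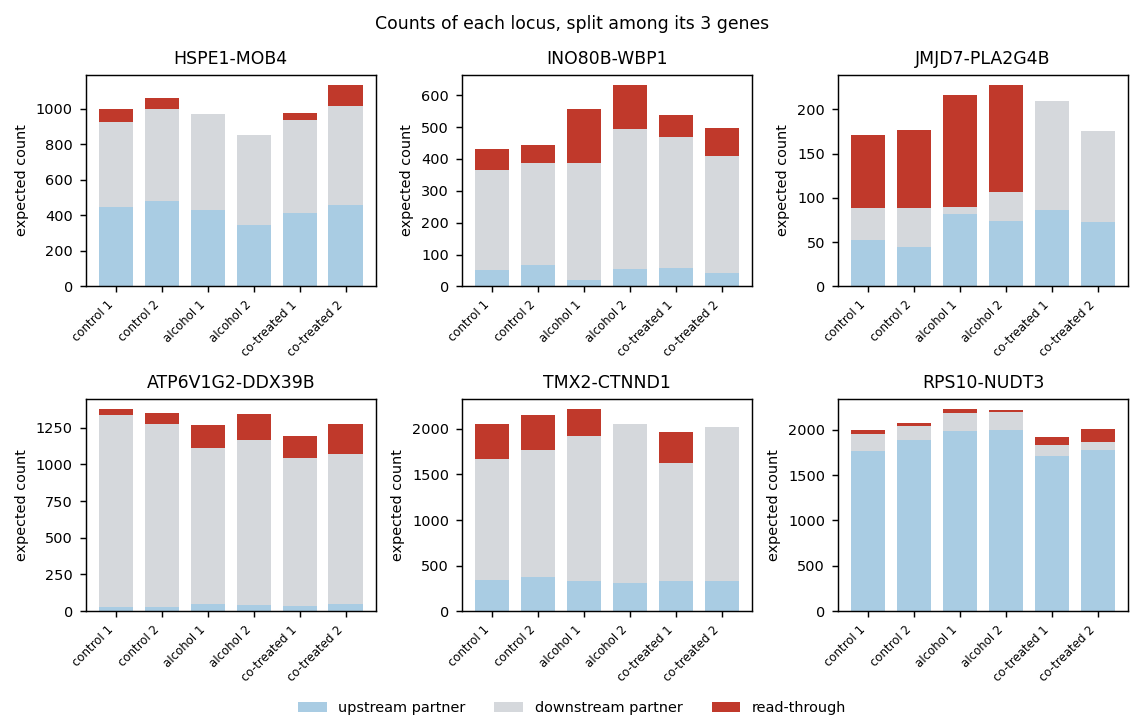
Expected counts (y axis, linear, from 0) of 6 loci in each library (x axis), stacked as upstream partner, downstream partner and read-through gene. The height of the JMJD7-PLA2G4B bars stays between 171 and 228 counts while the read-through part falls from 126 to 0.

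RPS10-NUDT3, SYS1-DBNDD2 and ABHD14A-ACY1 followed in the order of p-values. RPS10-NUDT3, which joins a protein of the small ribosomal subunit to a diphosphoinositol polyphosphate phosphohydrolase, was at 44.9 and 34.2 counts in control, 42.1 and 20.7 in alcohol, and 93.2 and 142 in co-treated libraries. Its log2 fold change was 1.55 ± 0.32 against control (adjusted p = 0.0601) and 1.89 ± 0.33 against alcohol (adjusted p = 0.230). NUDT3 was at 188 and 161 counts in control, 194 and 194 in alcohol, and 121 and 95.8 in co-treated libraries, lowest where the read-through gene was highest. The sum lay between 1923 and 2226 counts. SYS1-DBNDD2 was at 0 and 5.24 counts in control against 32.4 and 26.2 in co-treated libraries (adjusted p = 0.0732), while DBNDD2 ranged from 183 to 248.

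Between co-treated and alcohol libraries, 2 genes of 14926 were called over the whole table (0.0134%), and both were read-through genes. These were JMJD7-PLA2G4B, described above, and HSPE1-MOB4, whose estimate was at least 26.2-fold higher in co-treated libraries against the floor (adjusted p = 0.0160). The HSPE1-MOB4 call was lost without co-treated replicate 2, the library with 118 counts (adjusted p = 0.106), and over 13 alternatives that p ranged from 0.000103 to 0.446. With no filter, 20 of the 104 had an unadjusted p under 0.05, or 19.2%, beside 4.30% of all genes fitted. This comparison shares libraries with both of the others, and each of its 2 calls used a pair of zeros in the shared alcohol or co-treated group.

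INO80B-WBP1 had a log2 fold change of -0.95 ± 0.20 between co-treated and alcohol libraries and was not called (adjusted p = 0.461). RNF103-CHMP3, at 0 in both alcohol libraries, was at least 6.15-fold higher in co-treated libraries against the floor, and was not called (adjusted p = 0.359). Its partners RNF103 and CHMP3 held between 217 and 273 counts and between 436 and 616 counts, and neither was called.

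No partner gene was called by edgeR in any of the 3 comparisons among 176 tested, while 24, 27 and 13 had an unadjusted p under 0.05. In percent these were 13.6, 15.3 and 7.39, beside 11.0, 12.6 and 5.55 over all genes tested. By DESeq2, 0, 1 and 1 partner genes were called, and by limma none. The lowest adjusted p of a partner was that of P2RY11, a purinergic receptor, between co-treated and control libraries (adjusted p = 0.0704). P2RY11 was at 20.1 and 27.2 counts in control, 21.2 and 35.9 in alcohol, and 3.75 and 0 in co-treated libraries, while PPAN-P2RY11 was at 89.5 and 63.2, 92.0 and 53.9, and 125 and 96.3 counts.

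The same tests were then run with each locus as 1 summed row, in a table of 14779 rows that held 103 of the 104 loci after the filter. No summed locus was called by edgeR in any comparison, nor by DESeq2. Over all of its rows, 13, 71 and 0 were called, or 0.0880%, 0.480% and 0%. At an unadjusted p under 0.05 stood 10, 12 and 6 loci, which is 9.71%, 11.7% and 5.83% of the loci, beside 11.3%, 12.7% and 5.66% of all rows. With no filter it was 9, 12 and 6 of the 104 loci, or 8.65%, 11.5% and 5.77%, beside 8.38%, 9.48% and 4.35%. The median log2 fold change over the summed loci was -0.01, 0.02 and 0.01. All 12 alternative fits of the summed table also called no locus in any of the comparisons. Averaged over 6 libraries, HSPE1-MOB4 held 4.56% of its locus, ATP6V1G2-DDX39B 10.4%, INO80B-WBP1 18.5% and JMJD7-PLA2G4B 34.9%. These means include libraries at 0. JMJD7-PLA2G4B held 47.9% to 58.4% in the control and alcohol libraries, and HSPE1-MOB4 4.01% to 10.4% in the control and co-treated libraries. Where the share is small, losing the whole read-through gene would move the sum little, so an uncalled sum cannot decide whether its RNA changed.

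**Figure D3:**
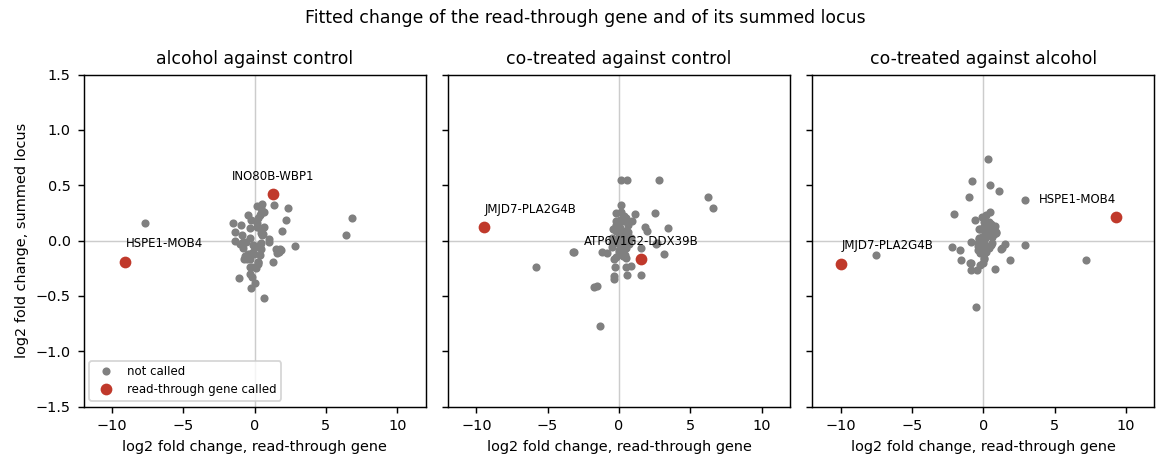
Fitted log2 fold change of each tested read-through gene (x axis) and of its summed locus (y axis, a narrower range) in the 3 comparisons, with called read-through genes in red. The points at about -9 and 9 are genes with a group at 0, whose fitted value depends on the prior count, while every called gene's summed locus lies between -0.21 and 0.42.

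Zeros beside counts were found within groups as well as between them. In 21 of the 81 read-through genes that reached 10 counts in any library, 1 library was at 0 while its replicate held at least 10 counts. That is 25.9%, beside 7.07% of partners and 0.701% of all genes that reached 10 counts. No summed locus did so, but the sums hold more counts, and such zeros are rarer at higher counts. Among all genes whose highest count lay from 300 to under 1000 the share was 0.0588%, so the sums are not a comparison matched for level. Of the zeros of read-through genes, 7 fell in control replicate 1 and 4 in control replicate 2. Alcohol replicate 1 had 2 and alcohol replicate 2 had 7, and co-treated replicate 1 had 2 and co-treated replicate 2 had 7.

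The same shares were counted by level of expression. Among genes whose highest count lay from 10 to under 30, 10 of 18 read-through genes had such a zero. Beside them stood 9 of 29 partners (31%) and 2.72% of all genes. From 30 to under 100 counts it was 8 of 27 (29.6%), beside 3 of 51 partners (5.88%) and 0.813% of all genes. From 100 to under 300 counts it was 2 of 28 (7.14%), beside 1 of 64 partners (1.56%) and 0.105% of all genes.

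**Figure D4:**
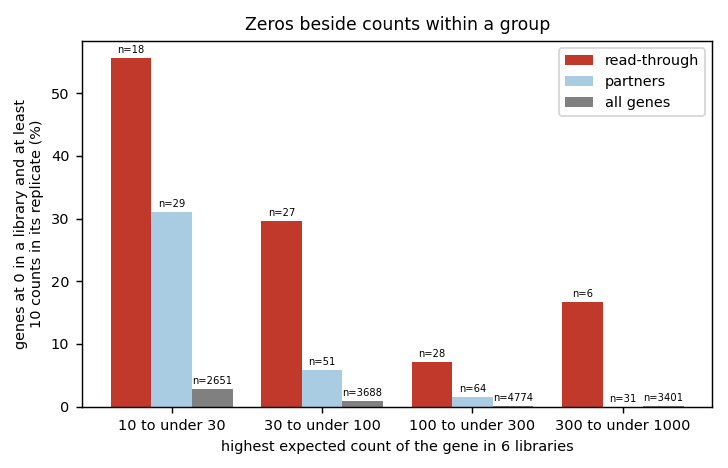
Percent of genes (y axis, linear, from 0) that are at 0 in a library and at 10 or more counts in its replicate, by the highest count of the gene (x axis), for read-through genes, partners and all genes, with the number of genes above each bar. The read-through bar is the highest in each of the 4 ranges, from 55.6% at 10 to under 30 counts to 7.14% at 100 to under 300 counts and 16.7% (1 of 6 genes) above.

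TMX2-CTNND1 had the highest count among these 21. It joins a thioredoxin-related transmembrane protein to CTNND1, the p120 catenin of cell-cell junctions. It was estimated at 379 and 387 counts in control, 291 and 0 in alcohol, and 341 and 0 in co-treated libraries. Replicate 1 of each treated group lay near the controls and replicate 2 held none. The fitted log2 fold changes were -1.40 ± 1.06 and -1.19 ± 1.04 against control and did not pass the test (adjusted p = 0.687 and 0.705).

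CTNND1 held 1332 and 1392 counts in control, 1589 and 1740 in alcohol, and 1294 and 1689 in co-treated libraries, so that it was higher in each treated library whose read-through estimate was 0 than in its replicate. TMX2 lay between 312 and 373 counts throughout. The summed locus stood between 1964 and 2215 counts in all 6 libraries, and its log2 fold change was 0.00 ± 0.12 in alcohol and -0.10 ± 0.12 in co-treated libraries.

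A further 7 named read-through genes had such a zero. ARL2-SNX15, which joins a small GTPase to a sorting nexin, was at 0 and 21.2 counts in control, 130 and 18.9 in alcohol, and 109 and 85.5 in co-treated libraries. SNX15 was at 96.2 and 98.6, 0 and 95.1, and 0 and 19.1 counts in the same order, high where ARL2-SNX15 was low. Their locus held between 224 and 299 counts. GPR75-ASB3 was at 43.5 and 48.7 counts in control, 75.7 and 69.2 in alcohol, and 81.4 and 0 in co-treated libraries, and ASB3 reached its highest value, 192 counts, in the library where GPR75-ASB3 was at 0.

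C7orf55-LUC7L2 was at 0 and 31.3 counts in control, 105 and 0 in alcohol, and 53.7 and 149 in co-treated libraries, a spread within groups as wide as that between them. LUC7L2, a factor of the U1 splicing particle, ranged from 415 to 550 counts and the sum from 607 to 707. CHKB-CPT1B, which joins choline kinase beta to the muscle form of carnitine palmitoyltransferase 1, was at 19.3 and 27.8, 61.2 and 61.6, and 40.9 and 0 counts. RAB4B-EGLN2, whose downstream partner is an oxygen-sensing prolyl hydroxylase, was at 32.9 and 0, 35.9 and 66.4, and 30.2 and 69.8 counts. CORO7-PAM16 was above 0 only in control replicate 2 (13.6 counts) and alcohol replicate 1 (46.5). SLX1B-SULT1A4 was at 20.2 and 0, 0 and 15.0, and 55.1 and 63.2 counts. Both of its partners have near-identical copies elsewhere in the genome, so its counts are uncertain.

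The spread between replicates was measured at the 67 loci whose read-through gene had a mean of at least 10 counts, as the absolute log2 ratio of replicates (1 count added) averaged over the 3 groups. Its median was 0.57 for read-through genes, 0.22 for their upstream partners, 0.45 for their downstream partners and 0.15 for the summed loci. At 64 of the 67 loci the read-through gene differed more between replicates than the sum. The sum contains the read-through gene and so holds at least as many counts, and the spread falls with count. Over all genes its median was 0.30 at a mean of 30 to 100 counts and 0.14 at 300 to 1000. The comparison with the sum is therefore not matched for level. Among genes with a mean of 30 to 100 counts the median was 0.59 for 31 read-through genes and 0.30 for all genes, and at 100 to 300 counts it was 0.44 for 14 read-through genes and 0.19 for all genes.

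**Figure D5:**
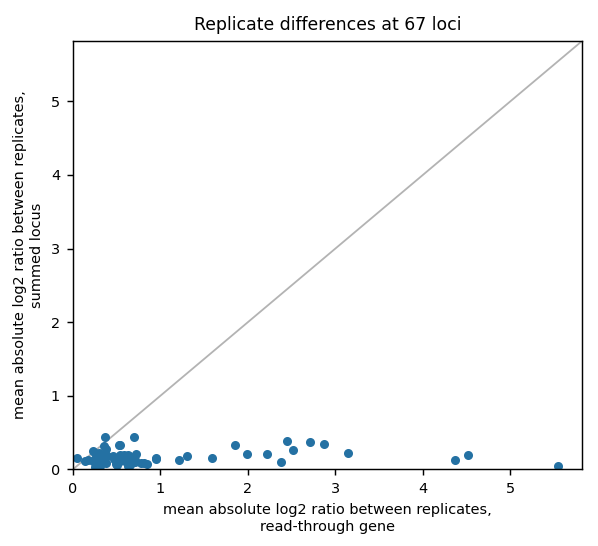
Mean absolute log2 ratio between the 2 replicates of a group for the read-through gene (x axis) and for its summed locus (y axis, same scale) at 67 loci, with the line of equality. At 64 loci the point lies below the line, and the medians are 0.57 and 0.15. The sums contain the read-through gene and are not matched to it for count level.

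Genes of the machinery that ends transcription and removes faulty RNAs were examined as lists. Of 21 cleavage and polyadenylation genes, 18 genes of transcription termination and 19 of nonsense-mediated decay, all were tested and none was called by edgeR in any comparison, nor under any alternative fit. In alcohol, 1 of 21, 3 of 18 and 2 of 19 had an unadjusted p under 0.05, beside 11.0% of all genes tested, and all 3 termination genes among them were lower. The median log2 fold changes of the lists were -0.08, -0.14 and -0.05, beside 0.00 over all genes. In co-treated against control libraries the medians were -0.04, -0.09 and -0.11, with 1 of 21, 5 of 18 and 1 of 19 genes under an unadjusted p of 0.05, beside 12.6% of all genes. Of the 5 termination genes, 4 were lower and 1 was higher. Between co-treated and alcohol libraries the medians were 0.04, 0.04 and 0.08, with 2 of 21, 1 of 18 and 1 of 19 genes, beside 5.55% of all genes.

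Among these genes, TTF2, a termination factor that releases RNA polymerase II, had the largest fitted change. Its log2 fold change was -0.88 ± 0.26 in alcohol (mean counts 52.5 against 95.1) and was not called (adjusted p = 0.219). NBAS, a factor of nonsense-mediated decay, had the lowest adjusted p, with a log2 fold change of 0.49 ± 0.11 between co-treated and control libraries (adjusted p = 0.0885). PABPN1 belongs both to the polyadenylation list and, as partner of BCL2L2-PABPN1, to the loci described here, and its log2 fold change of -0.44 ± 0.14 between co-treated and alcohol libraries was not called (adjusted p = 0.836).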

How the data were processed

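The authors deposited, for each of 6 libraries, RSEM expected counts and FPKM per gene on RefSeq transcripts. The submitters' processing notes name HISAT2 2.0.4, Bowtie2 2.2.5, RSEM 1.2.12 and hg38. FPKM deposited per library and in the series table were identical. Expected counts were rounded and tested with edgeR 4.0.16 (quasi-likelihood, TMM, filterByExpr, all 6 libraries, Benjamini-Hochberg over all genes tested), then again with each read-through gene and its 2 partners summed into 1 row. DESeq2 1.42.0 and limma 3.58.1 on log2(FPKM + 1) and log2(FPKM + 0.1) were alternatives. Scripts were tested on simulated data. Replicates differed by more than sampling noise (chi-square per degree of freedom 4.71 to 7.81). Replicate numbers did not pair samples. A level of 0 was bounded with 3 counts per library, which does not cover the division of reads among genes. Members, gene lists and the rule for named genes (5 markers, called genes, 10 highest in FPKM, 8 highest with a zero beside at least 10 counts, 5 smallest p per comparison, 5 largest and 5 smallest shares) were chosen with earlier results of these data known. TTF2, NBAS and PABPN1 were chosen after their values were seen.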

Additional observations from a re-analysis of the deposited data

How the results depend on the processing

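The number of read-through genes called depended on the processing, and that of summed loci (0) did not. For alcohol against control, the 2 calls became 0 with DESeq2 (which gave an adjusted p to 9 read-through genes), 0 and 1 with limma on log2(FPKM + 1) and log2(FPKM + 0.1), 0 with no expression filter, 4 with the replicate block and 1 with only the libraries compared, and between 0 and 6 on leaving out 1 library. For co-treated against control, 2 became 1 with either limma fit or no filter and 5 with only the libraries compared, and between 1 and 7 on leaving out 1 library. For co-treated against alcohol, 2 became 1 with limma on log2(FPKM + 1) or no filter and 0 with at least 10 counts in every library, a filter that removes any gene with a zero, and between 1 and 4 on leaving out 1 library. The replicate block gave 4, 3 and 2 calls; replicate numbers did not pair the samples (correlations of replicate differences 0.11, -0.02 and 0.04 over 14926 genes). Partner genes called, 0 in each comparison, became 1 and 1 with DESeq2 against control and against alcohol, 4 and 1 with only the libraries compared, 1 with the replicate block against alcohol, and 0 to 3, 0 to 4 and 0 to 1 on leaving out 1 library. Of the log2 fold changes of the read-through genes with the smallest p, none changed direction, 154 alternative values kept their side of the threshold, 20 lost it and 23 gained it. The 21 read-through genes at 0 beside at least 10 counts became 32 at 5 counts and 11 at 20 counts. The share of locus counts in control, alcohol and co-treated libraries was 8.32%, 8.70% and 9.27% from summed FPKM, 7.78%, 10.3% and 10.6% as a median over loci, and 19.0%, 19.4% and 19.9% over read-through genes with at least 10 counts in 1 library; without the largest locus it was 18.1% in alcohol and 18.4% in co-treated libraries; the cause of these changes was not tested. With 2 libraries a group and 4898287 to 5051448 counts each, most read-through genes rest on few, divided reads.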
